A study of Mus musculus with 5 samples.

Results

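Chemokine receptor genes were read out in mature thymocytes of the CD8 single-positive (SP) stage, sorted by flow cytometry, when T cells of the CD8 lineage are ready to leave the thymus. The set holds 9 receptors: the CC receptors Ccr4, Ccr7, Ccr8, Ccr9 and Ccr10 and the CXC receptors Cxcr3, Cxcr4, Cxcr5 and Cxcr6. They were chosen by symbol out of 35976 genes counted, with earlier results of these data known. All 9 had counts, and 8 had enough for the test, with Ccr10 below the filter on low counts. The samples were 3 libraries from mice with the genotype Runx3 +/WRPW, in which 1 Runx3 allele is named WRPW, set against 2 libraries from wild-type mice, Runx3 +/+. Total RNA of the sorted thymus cells went into all 5 libraries. The labels name no other allele, no treatment, and neither strain, age nor number of animals, and whether each library stands for a different animal is not stated. The p-values therefore reflect the spread among these 5 libraries alone, which may be technical.

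Chemokine receptors are G protein-coupled receptors that sense gradients of small secreted chemokines and steer the cell towards or away from their source, mainly through the inhibitory G protein alpha subunits. In the thymus, Cxcr4 and Ccr9 serve the early and cortical stages, and Ccr7 and Ccr4 lead positively selected cells into the medulla. Ccr8, Cxcr3, Cxcr5 and Cxcr6 are better known from effector, memory, follicular and tissue-resident T cells. Runx3 is a transcription factor of CD8 T cells that keeps Cd4 off. Runx proteins end in a short motif that recruits Groucho/TLE corepressors, and WRPW is the motif by which Hes repressors bind them.

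The libraries held 15715242 to 43758550 counts, and levels are given as CPM, counts scaled to a common library size with TMM factors. A floor of 3 counts is 0.0686 to 0.191 CPM. Runx3 +/WRPW library 2 stood apart. It had a count at 27414 genes, against 17237 to 18967 in each of the other 4. Of the genes with no count in the other 4 libraries, 7350 had a count in this one, with a median of 0.137 CPM per kilobase of transcript and a 95th percentile of 1.04. The labelled cell type was visible in its markers: Cd8a was at 2241 to 2634 CPM in Runx3 +/WRPW and 2201 and 2616 CPM in Runx3 +/+, while Cd4 was at 0.160, 0.369 and 0.0460 CPM in Runx3 +/WRPW libraries 1, 2 and 3 and at 0.467 and 5.35 CPM in Runx3 +/+ libraries 1 and 2. Transcripts of Runx3 were at 394, 337 and 422 CPM in Runx3 +/WRPW against 273 and 357 CPM in Runx3 +/+, and counts summed over a gene cannot tell its alleles apart. Markers of NK cells were low apart from Nkg7 (4 of 8 below 1 CPM in every library, Ncr1 at no more than 0.369 CPM). Those of erythroid cells were low as well (6 of 6 below 1 CPM). Of these, Hba-a1 and Hba-a2 had no count in any library, and how reads with several positions were treated is not stated. Of 9 markers of thymic epithelium and stroma, only 2, Krt5 and Krt8, were below 1 CPM throughout. Epcam was at 2.61 to 7.57 CPM over the 5 libraries. Foxn1 was at 4.615 CPM in Runx3 +/WRPW library 2 and at no more than 0.0460 CPM elsewhere, and Col1a1 reached 4.25 CPM in that library. Pecam1, the highest of the 9, was lower in Runx3 +/WRPW (85.5 ± 12.6 CPM, SD, n = 3) than in Runx3 +/+ (163 ± 28.3 CPM, SD, n = 2, edgeR adjusted p = 0.0139). Its call was lost when either Runx3 +/+ library was left out. Cdh5, also among the 9, was at no more than 1.64 CPM in any library, while Pecam1 was at 77.2 CPM or more in each. Which cells the Pecam1 transcripts came from was not tested, so its fall is not read as a change in stroma. In bulk RNA, fewer cells of a type and less RNA per cell cannot be told apart.

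Of the 8 receptors tested, 3 were higher and 3 lower in Runx3 +/WRPW cells and 2 did not pass. The threshold was an adjusted p under 0.05 in the quasi-likelihood test of edgeR (Benjamini-Hochberg, over all 13666 genes tested). The higher ones were Ccr8, Cxcr5 and Cxcr3, and the lower ones Ccr4, Ccr9 and Ccr7. Over all genes tested, 13.6% passed in either direction, 6.24% were higher and 7.33% lower, and 1.03% passed with a rise of at least 4-fold, as each of the 3 higher receptors did. The median size of the log2 fold change was 1.40 over the 8 receptors and 0.22 over all tested genes, while the signed medians were -0.08 and 0.02. In 7 of the 8 the CPM of the genotypes did not overlap, which was so for 48.3% of all tested genes. The receptors were chosen with earlier results of these data known. The comparisons with all tested genes thus describe the set and do not test it. Without Runx3 +/+ library 1 or library 2, 1 receptor was still higher and 0 lower (3 higher and 3 or 4 lower at an unadjusted p under 0.05); without Runx3 +/WRPW library 1, 2 or 3 in turn, 3 were higher each time and 1, 3 and 2 lower.

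**Figure D1:**
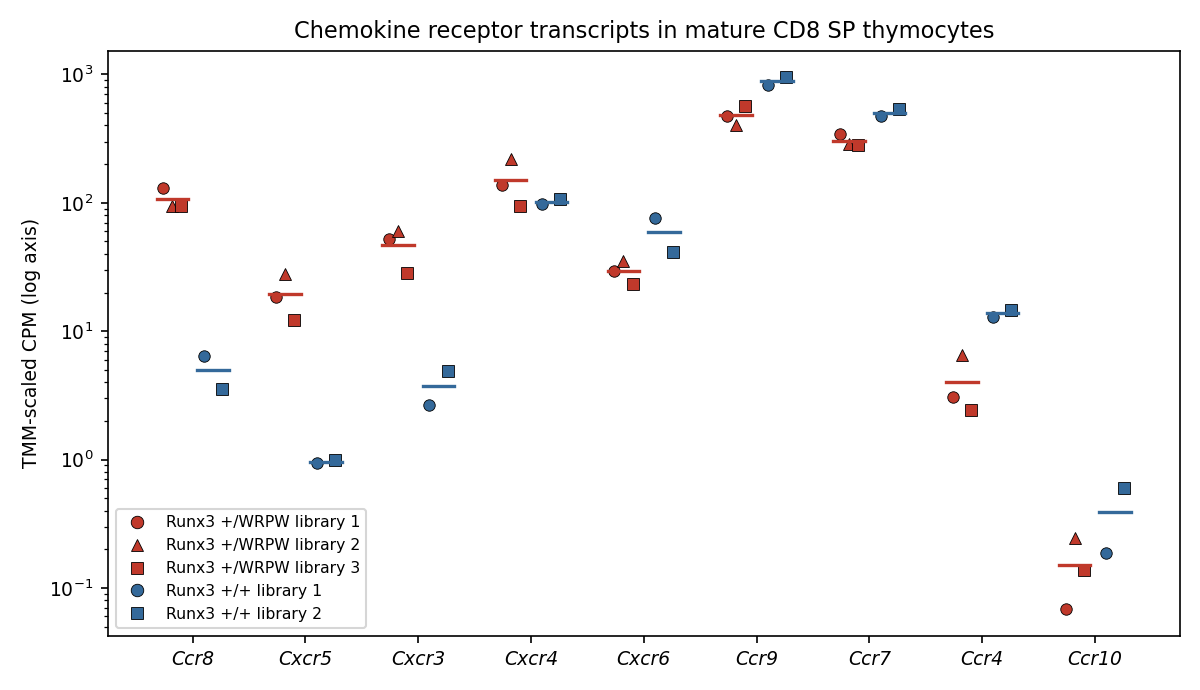
TMM-scaled CPM (log axis) of each of the 9 receptors in every library, Runx3 +/WRPW in red and Runx3 +/+ in blue, with a bar at the mean of each genotype. The red points of Ccr8, Cxcr5 and Cxcr3 all lie above the blue ones, those of Ccr9, Ccr7, Ccr4 and Cxcr6 lie below, and those of Cxcr4 and Ccr10 overlap with them.

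Ccr8 (chromosome 9, 120092133 to 120094906, GRCm38), the receptor of Ccl1 and in mice of Ccl8, had the largest rise of the set. It was at 130, 93.9 and 94.7 CPM in Runx3 +/WRPW libraries 1, 2 and 3, against 6.44 and 3.56 CPM in Runx3 +/+ libraries 1 and 2. The lowest Runx3 +/WRPW library was far above the higher Runx3 +/+ one, and library 2, which stood apart in the number of genes detected, was level with library 3. The difference was 21.6-fold (log2 fold change 4.43 ± 0.29 SE, edgeR adjusted p = 0.0012), the 37th largest of the 853 rises called. Ccr8 was the 1 receptor of the set whose call held whichever library was left out, with an adjusted p from 0.00415 to 0.0275.

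Cxcr5 (chromosome 9, 44511787 to 44526444), the receptor of Cxcl13 that leads B cells and follicular helper T cells into follicles, was near silent in Runx3 +/+ cells. It had 18.5, 28.0 and 12.3 CPM in Runx3 +/WRPW, from 808, 455 and 267 reads, against 0.934 and 0.999 CPM in Runx3 +/+, from 20 and 25 reads. The libraries of each genotype lay apart, and the spread was wider among those of Runx3 +/WRPW. The log2 fold change was 4.33 ± 0.44 SE (20.2-fold, edgeR adjusted p = 0.00348). It was 3.99 without Runx3 +/WRPW library 2. The call was lost without Runx3 +/+ library 1 (adjusted p = 0.065) or library 2 (adjusted p = 0.0841), where the log2 fold changes were 4.24 and 4.37.

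B cells also carry Cxcr5, so their markers are set beside it. The summed level of the 9 B cell markers was 4.39, 13.2 and 3.40 CPM in Runx3 +/WRPW libraries 1, 2 and 3, against 9.85 and 10.2 CPM in Runx3 +/+. Of the 9, 5 were below 1 CPM in every library, Pax5 and Cd22 among them. Ebf1, a B cell factor, was at 0.137, 7.14 and 0.138 CPM in Runx3 +/WRPW and at 0.0467 and 0.0400 CPM in Runx3 +/+, and Ms4a1 reached 1.11 CPM in Runx3 +/WRPW library 2. Of the 2 markers tested in edgeR 1 passed, while DESeq2 called 1 higher and 1 lower. Cd79b was lower in Runx3 +/WRPW, at 1.92 ± 0.23 CPM (SD, n = 3) against 7.56 ± 0.008 CPM (SD, n = 2; log2 fold change -1.96, edgeR adjusted p = 0.00426, a call lost when either Runx3 +/+ library was left out). Library 2 of Runx3 +/WRPW had both the highest B cell sum and the highest Cxcr5, and the part of B cells in the Cxcr5 result was not tested. Bcl9l, which on the opposite strand shares 110 bases of exon with Cxcr5, had 228, 222 and 224 CPM against 202 and 217 CPM, a log2 fold change of 0.11 ± 0.06 SE (adjusted p = 0.323).

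Cxcr3 (chromosome X, 101731535 to 101734147), which binds the interferon-induced chemokines Cxcl9, Cxcl10 and Cxcl11 and guides effector and memory CD8 T cells, was at 51.9, 60.2 and 28.2 CPM in Runx3 +/WRPW. The Runx3 +/+ libraries had 2.66 and 4.87 CPM. The ranges were far apart, although within each genotype the highest library was far above the lowest. The log2 fold change was 3.62 ± 0.43 SE (12.3-fold, edgeR adjusted p = 0.00571). Without Runx3 +/+ library 1 the adjusted p = 0.0782 and without library 2 the adjusted p = 0.0777, with log2 fold changes of 3.22 and 4.13.

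**Figure D2:**
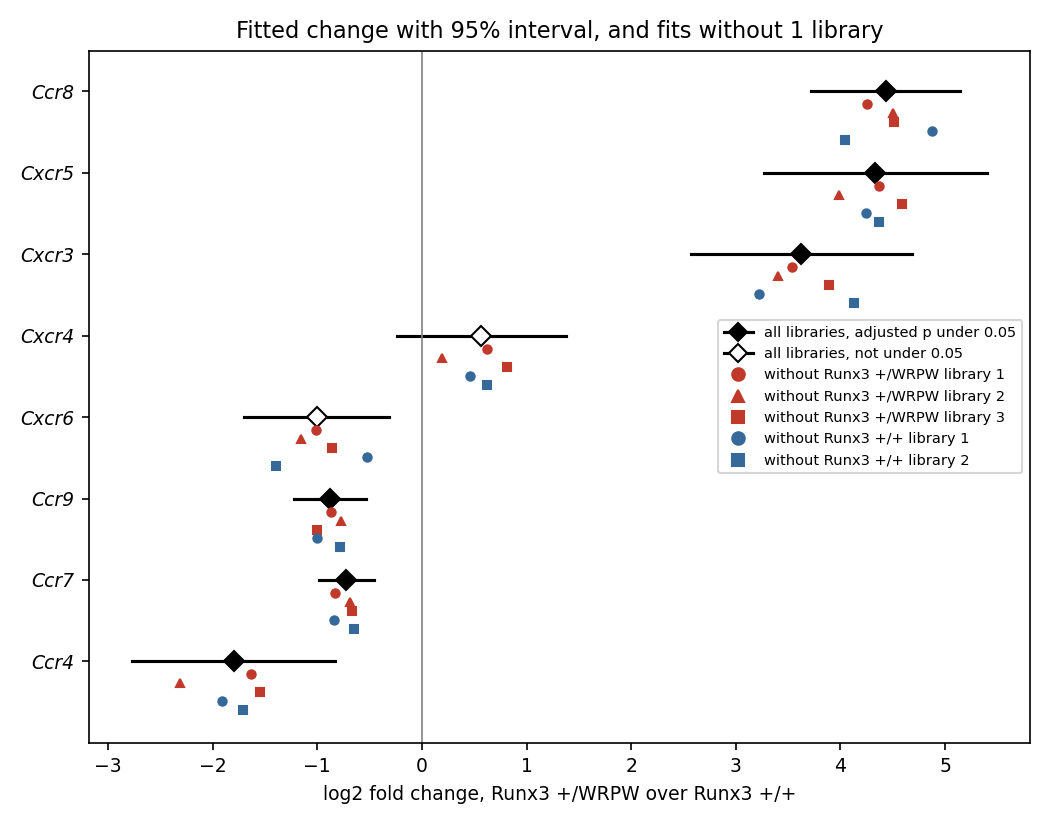
Log2 fold change of the 8 tested receptors, Runx3 +/WRPW over Runx3 +/+, with its 95% interval as a black line (filled diamond: edgeR adjusted p under 0.05), and beneath it the fits that leave out 1 library. Every such fit kept its sign, and Cxcr4 lay between 0.19 and 0.82.

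The 3 receptors that fell are known for guiding thymocytes through the cortex and medulla. Ccr9 (chromosome 9, 123767211 to 123783457), which senses Ccl25 made by thymic epithelium and by the small intestine, had the highest CPM of the set in both genotypes. It was at 475, 405 and 567 CPM in Runx3 +/WRPW, against 829 and 949 CPM in Runx3 +/+. The highest Runx3 +/WRPW library did not reach the lower Runx3 +/+ one. Its log2 fold change was -0.88 ± 0.14 SE (1.84-fold lower, edgeR adjusted p = 0.0143). The call was lost when Runx3 +/+ library 1 was left out (adjusted p = 0.105, log2 fold change -1.0), when Runx3 +/+ library 2 was (adjusted p = 0.199, -0.78), and when Runx3 +/WRPW library 1 was (adjusted p = 0.0564, -0.87). In the GENCODE M21 transcripts, 20.1% of the 50-base stretches of Ccr9 also occur in other genes, mostly in a transcript on the opposite strand. Gm17021, a noncoding gene whose RefSeq span overlaps the start of Ccr9, fell too, to 22.8 ± 1.44 CPM (SD, n = 3) in Runx3 +/WRPW against 39.6 ± 8.04 CPM in Runx3 +/+ (SD, n = 2; log2 fold change -0.79 ± 0.14 SE, adjusted p = 0.0181, lost when library 1 of Runx3 +/+, or library 1 or 3 of Runx3 +/WRPW, was left out). The counting is not stated to use strand, so reads of overlapping genes may not be told apart.

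Ccr7 (chromosome 11, 99144199 to 99155077), the receptor of Ccl19 and Ccl21 that brings selected thymocytes to the medulla and naive T cells to lymph nodes, had the narrowest interval of the set. It was at 346, 285 and 283 CPM in Runx3 +/WRPW and at 477 and 533 CPM in Runx3 +/+. The genotypes did not overlap. Its fold change was -0.72 ± 0.11 SE on the log2 scale (1.65-fold lower, edgeR adjusted p = 0.0114), with a 95% interval of -0.99 to -0.46. It was -0.84 without Runx3 +/+ library 1 (adjusted p = 0.0782) and -0.65 without library 2 (adjusted p = 0.164), where the call was lost.

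Ccr4 (chromosome 9, 114490316 to 114505476), which senses Ccl17 and Ccl22 of the medulla, was a receptor of low level. It was at 3.06, 6.52 and 2.44 CPM in Runx3 +/WRPW, from 134, 106 and 53 reads, against 12.9 and 14.5 CPM in Runx3 +/+, from 277 and 364 reads. Library 2 of Runx3 +/WRPW was the highest of its genotype and still below both Runx3 +/+ libraries. Its log2 fold change was -1.80 ± 0.40 SE (3.48-fold lower, edgeR adjusted p = 0.0363), and -2.31 without Runx3 +/WRPW library 2 (adjusted p = 0.00559). The other 4 fits that left out a library lost the call, with an adjusted p = 0.19 and an adjusted p = 0.292 for Runx3 +/+ libraries 1 and 2, and an adjusted p = 0.105 and an adjusted p = 0.0784 for Runx3 +/WRPW libraries 1 and 3.

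Ccr4 and Ccr8 are also carried by regulatory T cells, and 2 of 7 markers of these cells were lower in Runx3 +/WRPW and 1 higher. Over all tested genes, 7.33% were lower and 6.24% higher. Foxp3, the defining factor of regulatory T cells, was at 1.19, 0.677 and 0.414 CPM in Runx3 +/WRPW and at 5.09 and 9.63 CPM in Runx3 +/+ (log2 fold change -3.22, edgeR adjusted p = 0.0123). Ctla4, an inhibitory receptor, was lower as well (log2 fold change -2.32, adjusted p = 0.0157), and Ikzf4 higher (0.80, adjusted p = 0.0049). The summed level of the 7 was 451, 341 and 512 CPM in Runx3 +/WRPW against 350 and 448 CPM in Runx3 +/+, so the sums overlapped. Il2ra was at 6.44, 4.55 and 4.09 CPM in Runx3 +/WRPW against 3.78 and 3.96 CPM in Runx3 +/+ (log2 fold change 0.39, edgeR adjusted p = 0.377). The calls of Foxp3, Ctla4 and Ikzf4 were lost when either Runx3 +/+ library was left out (that of Ctla4 also for Runx3 +/WRPW library 3). The part of these markers in the Ccr4 and Ccr8 results was not tested.

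Cxcr4 and Cxcr6 did not pass. Cxcr4 (chromosome 1, 128588199 to 128592299), the receptor of Cxcl12 on immature thymocytes, was at 137, 220 and 95.3 CPM in Runx3 +/WRPW and at 97.4 and 107 CPM in Runx3 +/+. Library 2 of Runx3 +/WRPW was the highest and library 3 the lowest of all 5. The log2 fold change of 0.57 ± 0.33 SE (95% interval -0.24 to 1.37, adjusted p = 0.312) was 0.19 without Runx3 +/WRPW library 2. Cxcr6 (chromosome 9, 123806477 to 123811754), the receptor of the membrane-bound chemokine Cxcl16 on resident memory and NKT cells, was at 29.3, 35.3 and 23.4 CPM in Runx3 +/WRPW and at 76.8 and 41.1 CPM in Runx3 +/+. The genotypes did not overlap, but the Runx3 +/+ libraries were far apart from each other. The log2 fold change was -1.0 ± 0.28 SE (95% interval -1.70 to -0.31, edgeR adjusted p = 0.0703), and -0.53 without Runx3 +/+ library 1. DESeq2 gave it an adjusted p = 0.0381.

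Ccr10 (chromosome 11, 101172998 to 101175443), known from skin-homing T cells and plasma cells, had 3, 4 and 3 reads in Runx3 +/WRPW and 4 and 15 in Runx3 +/+, at most 0.599 CPM. Its level of 0.143 CPM per kilobase in Runx3 +/WRPW library 2 was close to the 0.137 that is the median of the genes seen in that library alone. A difference was not detectable at this depth.

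Markers of double-positive thymocytes, which use Ccr9 and Cxcr4, and of innate-like T cells, which use Cxcr6 and Cxcr3, were set beside these values. Rag1, Rag2 and Ptcra were below 1 CPM in all 5 libraries. The sum of the 9 double-positive markers was 79.1, 98.5 and 74.7 CPM in Runx3 +/WRPW and 92.8 and 76.1 CPM in Runx3 +/+, which overlap, and 1 of the 7 tested, Dntt, passed, with a fall (log2 fold change -1.84, edgeR adjusted p = 0.028, lost when Runx3 +/WRPW library 3 or either of the Runx3 +/+ pair was left out). The 6 innate-like markers in the files summed to 0.822, 11.3 and 1.43 CPM against 0.887 and 1.84 CPM, with 9.72 CPM of Zbtb16, the factor of NKT cells, in Runx3 +/WRPW library 2 and no more than 0.368 CPM elsewhere. Dendritic cell and macrophage markers, of cells that carry Ccr7, summed to 45.3, 21.2 and 11.6 CPM against 16.3 and 16.4 CPM. Of the 12, 4 were below 1 CPM throughout, Itgax and Lyz2 among them. Cd74 was at 31.1 CPM in Runx3 +/WRPW library 1. H2-Eb1 was at 10.8, 0.554 and 0.69 CPM in Runx3 +/WRPW against 0.28 and 0.12 CPM. Flt3 and Zbtb46 were at 5.97 and 3.32 CPM in Runx3 +/WRPW library 2. Of 5 tested in edgeR, 0 passed, and 2 were higher and 0 lower at an unadjusted p under 0.05. DESeq2 called 1 higher. Of the 9 markers of mature CD8 T cells tested, 3 passed, all lower, Cd3d and Cd27 among them. Over all tested genes, 13.6% passed in either direction and 7.33% were lower. Leaving out any 1 library ended the call of Cd3d, and any but Runx3 +/WRPW library 2 that of Cd27. The part of these markers in the receptor results was not tested.

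**Figure D3:**
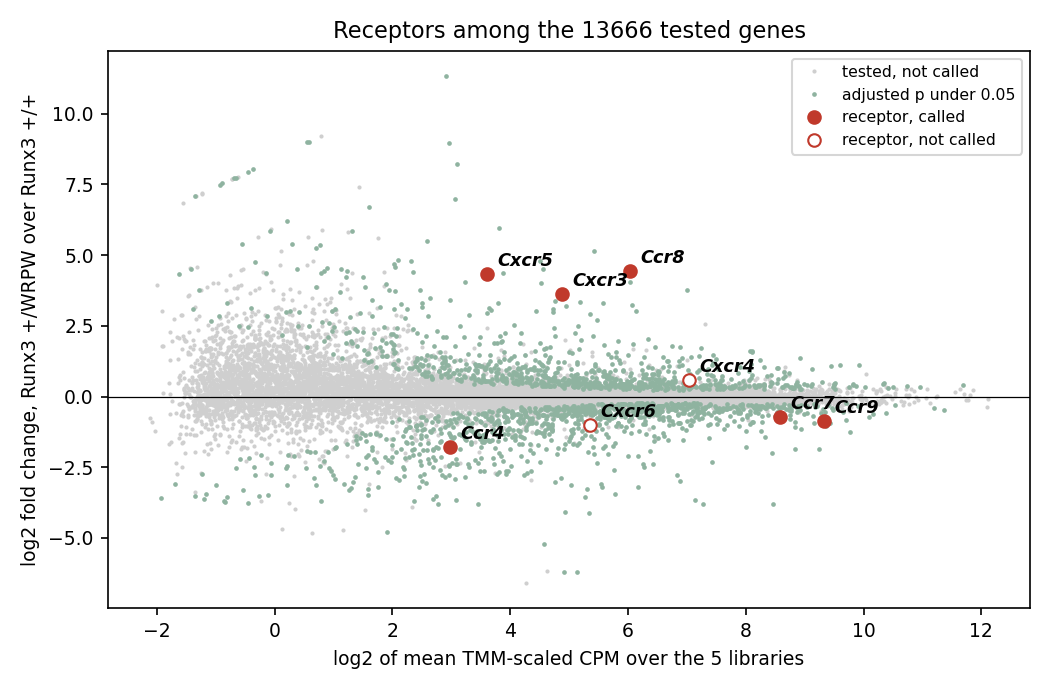
Log2 fold change (Runx3 +/WRPW over Runx3 +/+) against log2 of the mean TMM-scaled CPM for the 13666 tested genes, with the 8 receptors in red (filled: adjusted p under 0.05). Ccr8, Cxcr5 and Cxcr3 lie among the large rises, at ranks 60, 70 and 109 of all tested genes, while Ccr7 and Ccr9 are abundant genes with falls under 2-fold.

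Levels between receptors were compared per kilobase of the principal transcript. In Runx3 +/WRPW the order was Ccr7 at 154 ± 18.1 CPM per kilobase, Ccr9 at 126 ± 21.1, Ccr8 at 90.5 ± 17.7, Cxcr4 at 83.5 ± 35.1, Cxcr3 at 27.0 ± 9.59, Cxcr6 at 15.4 ± 3.14, Cxcr5 at 7.09 ± 2.87, Ccr4 at 1.91 ± 1.05 and Ccr10 at 0.0874 ± 0.0519 (SD, n = 3). In that genotype the ranges over libraries of the neighbours Ccr7 and Ccr9, Ccr8 and Cxcr4, and Cxcr3 and Cxcr6 overlapped, as did those of Ccr9 and Ccr8. In Runx3 +/+ it was Ccr7 at 255 ± 20.2, Ccr9 at 232 ± 22.1, Cxcr4 at 56.5 ± 3.63, Cxcr6 at 31.1 ± 13.3, Ccr4 at 6.56 ± 0.54, Ccr8 at 4.25 ± 1.74, Cxcr3 at 2.18 ± 0.90, Cxcr5 at 0.35 ± 0.02 and Ccr10 at 0.23 ± 0.17 (SD, n = 2), where only the ranges of Ccr7 and Ccr9 overlapped among neighbours, apart from the last pair. Ccr8 thus stood above 94.1% of the tested genes with a known length in Runx3 +/WRPW, against 28.4% in Runx3 +/+, while Ccr7 stood above 97.2% and 98.6%. With the length of all exons joined, Ccr9 would be lower, at 47.0 CPM per kilobase in Runx3 +/WRPW and 86.6 in Runx3 +/+, with rank 4 in Runx3 +/WRPW and rank 2 in Runx3 +/+.

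The make-up of the receptor transcripts differed between the genotypes more than their sum. Ccr7 and Ccr9 together made up 55.4%, 48.2% and 63.4% of the summed CPM per kilobase of the 9 receptors in Runx3 +/WRPW libraries 1, 2 and 3, against 80.9% and 84.6% in Runx3 +/+. Ccr8, Cxcr3 and Cxcr5 made up 27.4%, 24.1% and 22.1%, against 1.30% and 1.01%. The sum itself was 540, 518 and 459 CPM per kilobase against 565 and 611. Receptors that were high and those that were low in the tests add up here, so these shares restate the single genes and were not tested.

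**Figure D4:**
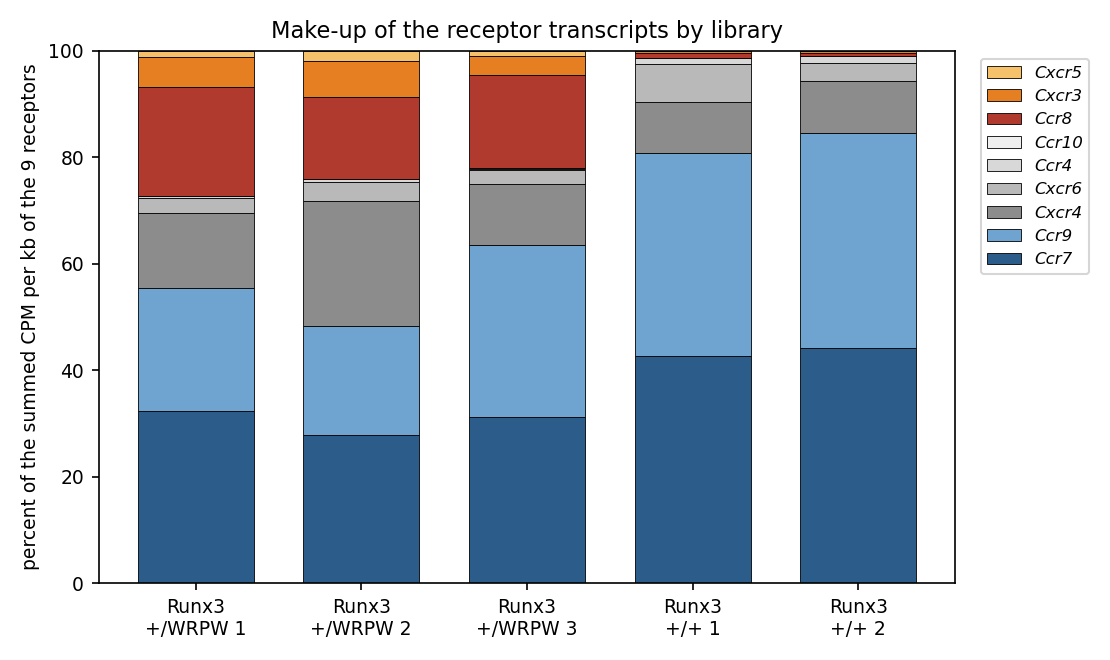
Percent of the summed CPM per kilobase of the 9 receptors held by each receptor, 1 bar per library, the 3 Runx3 +/WRPW libraries left of the 2 Runx3 +/+ libraries. Ccr8, Cxcr3 and Cxcr5, in warm colours, fill 22.1% to 27.4% of the Runx3 +/WRPW bars and 1.30% and 1.01% of the Runx3 +/+ bars.

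The start sites of the changed receptors were read for the core motif of Runx proteins, TGTGGT or TGCGGT on either strand, in the 250 bases before the start. RefSeq promoter sequences for GRCm38.p6 were matched for 6 of the 9 receptors. The 4 of these that passed the test are shown, 5' to 3' in the direction of the gene, with any match in capitals. The start used for Ccr4 lies inside its RefSeq span.
Ccr8, chr9:120091883-120092132, plus strand: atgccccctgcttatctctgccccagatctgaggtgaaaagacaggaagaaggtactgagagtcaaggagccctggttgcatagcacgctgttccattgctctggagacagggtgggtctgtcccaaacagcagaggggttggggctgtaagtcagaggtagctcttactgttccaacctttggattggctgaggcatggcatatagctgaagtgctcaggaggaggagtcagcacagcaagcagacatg
Cxcr3, chrX:101734148-101734397, minus strand: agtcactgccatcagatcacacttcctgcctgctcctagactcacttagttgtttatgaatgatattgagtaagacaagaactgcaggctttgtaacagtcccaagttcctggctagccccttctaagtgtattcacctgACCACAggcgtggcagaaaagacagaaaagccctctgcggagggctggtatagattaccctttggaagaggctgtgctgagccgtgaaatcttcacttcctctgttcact
Ccr9, chr9:123766961-123767210, plus strand: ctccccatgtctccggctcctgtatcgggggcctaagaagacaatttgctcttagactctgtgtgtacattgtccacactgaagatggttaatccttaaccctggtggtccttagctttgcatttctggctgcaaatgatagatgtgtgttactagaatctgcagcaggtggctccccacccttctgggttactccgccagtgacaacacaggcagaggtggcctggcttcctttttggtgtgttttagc
Ccr4, chr9:114496545-114496794, minus strand: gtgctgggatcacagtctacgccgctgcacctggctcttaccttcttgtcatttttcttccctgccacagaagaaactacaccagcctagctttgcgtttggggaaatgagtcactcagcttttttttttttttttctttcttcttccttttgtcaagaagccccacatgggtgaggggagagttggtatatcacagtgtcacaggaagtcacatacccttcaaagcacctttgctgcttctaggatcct
Of the 6, Cxcr3 held 1 match, the reverse complement ACCACA, that begins 110 bases before the start, and Cxcr6 held the same letters 10 bases before its start. No match was present in the windows of Ccr4, Ccr8, Ccr9 or Cxcr4. Of all 32851 promoter windows of this length, 14.1% held TGTGGT, 5.10% TGCGGT and 18.6% either. A match of letters is a description and shows no binding.

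The genes beside the receptors mostly did not move with them. Of the 9 receptors, 5 lie on chromosome 9, where Ccr9 and Cxcr6 are 23020 bases apart. Within 100 kilobases of a receptor lay 35 tested genes that are no members, of which 1 was higher, 3 lower and 31 did not pass (11.4% called, against 13.6% of all tested genes). Cx3cr1, the fractalkine receptor next to Ccr8, was at 6.05 ± 0.70 CPM (SD, n = 3) in Runx3 +/WRPW and 4.09 ± 3.13 CPM (SD, n = 2) in Runx3 +/+ (log2 fold change 0.58 ± 0.48 SE, edgeR adjusted p = 0.48), and Rpsa, a ribosomal protein gene 32860 bases away, was higher by 0.61 on the log2 scale (adjusted p = 0.00944, lost when either Runx3 +/+ library was left out). Rpsa has many processed pseudogenes, so its count is uncertain. Igfbp4, 91544 bases from Ccr7, fell much further than Ccr7 did, with a log2 fold change of -3.82 ± 0.25 SE (adjusted p = 0.00116). Tubg1 near Ccr10 had a log2 fold change of -0.38 ± 0.07 SE (adjusted p = 0.0223), lost in all 4 fits without a library other than Runx3 +/WRPW library 2. Fyco1, in which Cxcr6 is nested on the other strand, was at 157 ± 5.42 CPM (SD, n = 3) and 166 ± 0.013 CPM (SD, n = 2), with a log2 fold change of -0.08 ± 0.06 SE (adjusted p = 0.478).

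The remaining chemokine receptor genes were scarce. Of 15, 2 had no count in any library, 8 stayed below 1 CPM in every library and 6 could be tested, of which 0 passed in edgeR (1 at an unadjusted p under 0.05) and 0 in limma-voom, while DESeq2 called 1 as higher. Cxcr2, a receptor best known from neutrophils, was at 4.58 ± 1.73 CPM (SD, n = 3) and 5.88 ± 2.11 CPM (SD, n = 2), a log2 fold change of -0.34 ± 0.37 SE (edgeR adjusted p = 0.603) that turned to 0.04 without Runx3 +/+ library 1.

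Ligands of the 9 receptors, which thymic stroma and dendritic cells supply, had few or no counts in the sorted cells. Of 17 ligand genes, 4 had no count in any library, among them Ccl19 and the Ccl21 genes, 11 stayed below 1 CPM and 4 could be tested, with 0 passing in edgeR (1 at an unadjusted p under 0.05), DESeq2 or limma-voom. How reads with several positions were treated is not stated. A lack of counts at the Ccl21 genes therefore need not mean a lack of transcripts. Ccl25, the ligand of Ccr9, was at 2.59 ± 0.50 CPM (SD, n = 3) and 3.36 ± 0.33 CPM (SD, n = 2). Cxcl10, a ligand of Cxcr3, was at 2.71 ± 0.71 CPM (SD, n = 3) and 2.06 ± 1.05 CPM (SD, n = 2). The 5 chemokine genes that T cells themselves make gave 0 calls in edgeR (0 at an unadjusted p under 0.05), DESeq2 and limma-voom. Xcl1, which attracts cross-presenting dendritic cells, was at 12.8 ± 2.78 CPM (SD, n = 3) and 10.4 ± 1.14 CPM (SD, n = 2), and Cklf at 17.0 ± 1.62 CPM (SD, n = 3) and 15.6 ± 0.13 CPM (SD, n = 2).

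Of 15 tested receptor kinases, arrestins and RGS proteins, 5 were higher, 2 lower and 8 did not pass, with a median log2 fold change of 0.00, against 0.02 over all tested genes, of which 6.24% were higher and 7.33% lower. These proteins end or damp receptor signals, and the direction of the list was not tested. Adrbk2, which encodes the receptor kinase GRK3, was at 5.60, 8.18 and 7.03 CPM in Runx3 +/WRPW and at 0.28 and 0.20 CPM in Runx3 +/+ (log2 fold change 4.84 ± 0.35 SE, edgeR adjusted p = 0.00148). Rgs1, a GTPase activator that damps chemokine responses of lymphocytes, was at 74.9, 63.4 and 48.9 CPM against 10.1 and 6.47 CPM (log2 fold change 2.93 ± 0.27 SE, adjusted p = 0.00259). Rgs3 was at 374 ± 62.2 CPM (SD, n = 3) against 127 ± 14.2 CPM (SD, n = 2; 2.97-fold higher, adjusted p = 0.00331). The call of Adrbk2 held in every fit without a library, that of Rgs1 was lost without Runx3 +/+ library 2 (adjusted p = 0.0509) and that of Rgs3 when either Runx3 +/+ library was left out. With Runx3 +/+ library 1 left out there were 2 higher and 1 lower, and with library 2 of that genotype left out 1 and 0 (5 and 2 at an unadjusted p under 0.05). Of the Runx3 +/WRPW libraries, leaving out 1 or 3 gave 4 and 1, and leaving out 2 gave 5 and 3.

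Of 29 tested G protein subunits and effectors, which carry the receptor signal, 2 were higher, 7 lower and 20 did not pass. Over all tested genes, 6.24% were higher and 7.33% lower. The median log2 fold change of the list was -0.15. The direction of this list was not tested, and it was 2 higher and 3 lower with no low-count filter. Gnai2, the inhibitory subunit most used by chemokine receptors in T cells, was 1.29-fold lower, at 516 ± 23.3 CPM (SD, n = 3) in Runx3 +/WRPW against 669 ± 33.7 CPM (SD, n = 2; edgeR adjusted p = 0.0229). It was named for its role after its values were seen, and its call was lost when any library other than Runx3 +/WRPW library 2 was left out. Tiam1, an activator of Rac, was 2.25-fold lower (adjusted p = 0.00976), and Prex1, another, 1.31-fold lower (adjusted p = 0.0136). Both calls were lost when either Runx3 +/+ library was left out, that of Prex1 also for Runx3 +/WRPW libraries 1 and 3. Gna12 was 1.82-fold higher, at 33.8 ± 3.88 CPM (SD, n = 3) against 18.7 ± 1.20 CPM (SD, n = 2; adjusted p = 0.0107, lost when either Runx3 +/+ library was left out). Leaving out Runx3 +/+ library 1 gave 1 higher and 0 lower, and library 2 of that genotype 0 and 0 (at an unadjusted p under 0.05, 3 and 10 and then 2 and 8). Leaving out Runx3 +/WRPW libraries gave 1 and 2 for library 1, 3 and 5 for library 2 and 2 and 2 for library 3.

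**Figure D5:**
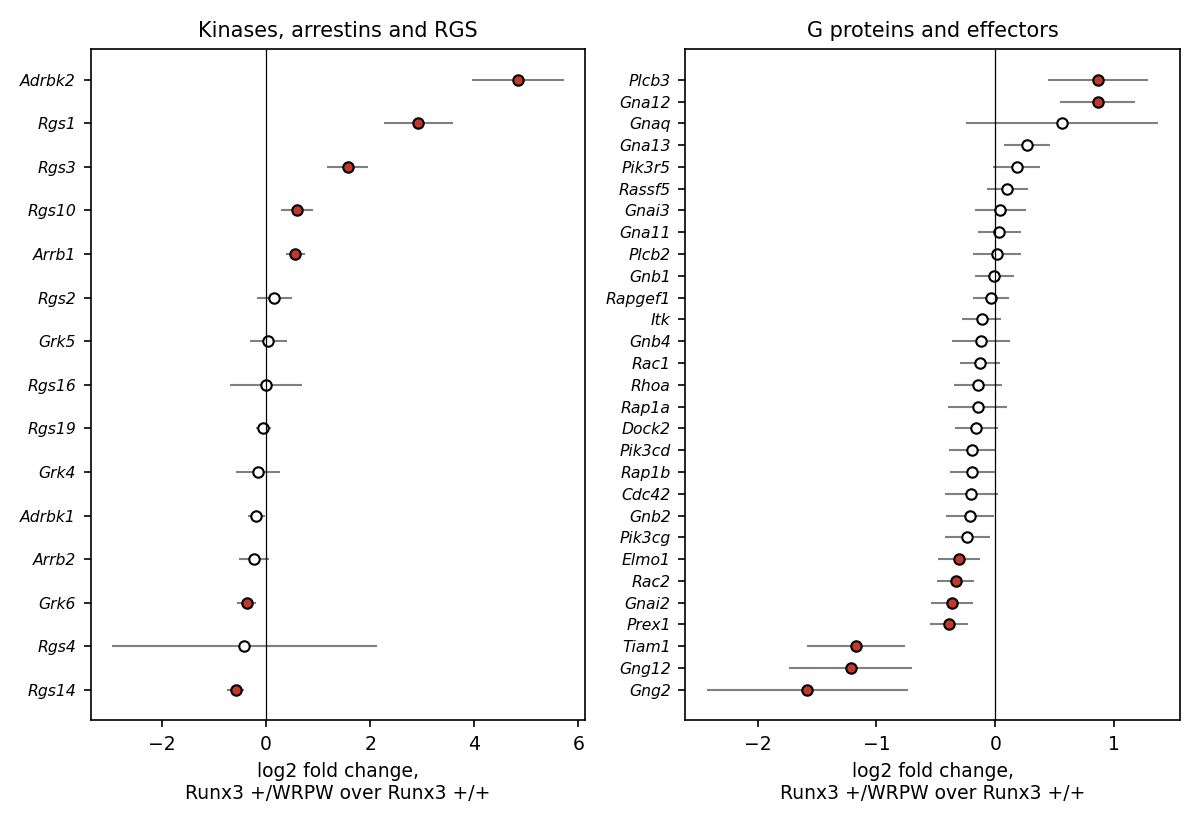
Log2 fold change (Runx3 +/WRPW over Runx3 +/+) with its 95% interval for the 15 tested receptor kinases, arrestins and RGS proteins on the left and the 29 tested G protein subunits and effectors on the right; filled points have an edgeR adjusted p under 0.05. Adrbk2, Rgs1 and Rgs3 stand out on the left, and the called genes on the right are within 3-fold.

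Of 18 tested transcription factors known to act on receptor genes of the set, 2 were higher, 8 lower and 8 did not pass. Over all tested genes, 6.24% were higher and 7.33% lower. The median log2 fold change of the factors was -0.38, and the direction of the list was not tested. The smallest p-values were those of Irf4 (2.48-fold lower, edgeR adjusted p = 0.00248), E2f1 (2.02-fold lower, adjusted p = 0.00309) and Lef1 (3.96-fold lower, adjusted p = 0.00376, lost without Runx3 +/+ library 2). A further 6 factors were named for their known targets after their values were seen. Foxo1, which with Klf2 maintains the homing receptors of naive T cells, Ccr7 among the targets of Foxo1, was at 249 ± 17.9 CPM (SD, n = 3) in Runx3 +/WRPW and 399 ± 18.3 CPM (SD, n = 2) in Runx3 +/+ (adjusted p = 0.0054). Klf2, in whose absence mouse T cells gain Cxcr3, was at 67.2 ± 14.6 CPM (SD, n = 3) and 332 ± 121 CPM (SD, n = 2; adjusted p = 0.00521).

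The T-box factors that act on Cxcr3 differed from each other. Eomes was at 104 ± 38.5 CPM (SD, n = 3) in Runx3 +/WRPW and 11.1 ± 1.70 CPM (SD, n = 2) in Runx3 +/+ (adjusted p = 0.00402 in edgeR), whereas Tbx21, which encodes T-bet, was at 0.777, 3.63 and 0.69 CPM and 1.73 and 1.40 CPM (log2 fold change 0.10 ± 0.81 SE, adjusted p = 0.95), and at -1.08 on the log2 scale without Runx3 +/WRPW library 2. Of the factors that induce or accompany Cxcr5 in follicular helper T cells, Ascl2 was 13.1-fold lower, at 0.32, 0.123 and 0.414 CPM against 3.78 and 4.04 CPM (adjusted p = 0.00837), and Bcl6 was at 32.5 ± 1.16 CPM (SD, n = 3) and 34.3 ± 2.68 CPM (SD, n = 2; log2 fold change -0.07 ± 0.08 SE, adjusted p = 0.617). Ascl2 moved opposite to Cxcr5, and the part of the listed factors in the Cxcr5 result was not tested. The called factors of the list not named so far were Id3, E2f2 and Id2. Id3 (log2 fold change -2.03, edgeR adjusted p = 0.00837) and E2f2 (-4.09, adjusted p = 0.0056) were lower. Id2 was higher (1.17, adjusted p = 0.0328), and at 0.81 without Runx3 +/+ library 2. Its call was lost without Runx3 +/WRPW library 1 or 3, without Runx3 +/+ library 2, and with no low-count filter (edgeR adjusted p = 0.0536). The calls of Foxo1, Eomes and Ascl2 were lost when either Runx3 +/+ library was left out, and that of Klf2 for library 2. With Runx3 +/+ library 1 left out, 1 factor was higher and 6 lower, and with library 2 of that genotype left out 0 and 4 (2 and 8 at an unadjusted p under 0.05). Leaving out Runx3 +/WRPW library 2 gave 2 and 8, and libraries 1 or 3 gave 1 and 8.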

How the data were processed

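RNA-seq was analysed from purified mature CD8 SP thymocytes of mice, 3 Runx3 +/WRPW and 2 Runx3 +/+ libraries grouped by the genotype label. Each deposited file lists the raw read counts of 1 sample by gene symbol. Per the submitters' processing notes, the authors' tools included HISAT2 2.2.1, cutadapt 4.0, edgeR 3.36.0 and featureCounts 2.0.8, with the build mm10. How reads with several positions were treated, which annotation was used and whether counting used strand were not given in the sources used here. In 2 files, both of a library 2, the column header does not name the sample (another number for Runx3 +/+, no number for Runx3 +/WRPW); the sample records were followed.

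The contrast was fitted over the whole table by glmQLFit and glmQLFTest of edgeR 4.0.16 under R 4.3.3. TMM factors were 0.981 to 1.034, and filterByExpr (minimum count 10) left 13666 of 35976 genes. Levels are TMM-scaled CPM. Standard errors were taken as the size of the log2 fold change over the square root of its F statistic. Intervals are at 95% from the fit, and the floor covers counting error only. No pair of libraries agreed within sampling noise (chi-square per gene of 14.2 or more). The receptors, the 15 other gene lists, drawn from textbook knowledge, and the tests were chosen with earlier results of these data known. Named genes are all members, up to 3 called genes per list of other receptors, chemokines, transducers, signal-ending proteins and factors by smallest p-value (where none was called, the 2 most abundant), and called or overlapping genes within 100 kilobases of a member; others are marked as named after their values were seen. Single cell type markers were picked for naming after their values were seen. Transcript lengths and overlaps came from GENCODE M21 (83.0% of tested genes matched), and coordinates and promoters from RefSeq, both on GRCm38, the assembly of mm10. The fit was tested on simulated data. Other settings tried were DESeq2 1.42.0, RLE factors, upper-quartile factors, limma-voom (limma 3.58.1), other low-count filters, robust dispersions, a replicate block and leaving out each library. Some genes of the lists are counted in the totals and not reported here by name.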

Additional observations from a re-analysis of the deposited data

How the results depend on the processing

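The number of receptors higher was 3 under all 8 alternatives other than leaving out a library, and 1 to 3 when a library was left out. The number lower was 3 with RLE or upper-quartile factors, limma-voom, robust dispersions and the stricter filter, 4 with DESeq2, 2 with no low-count filter, where Ccr4 had an adjusted p = 0.0501, and 0 to 3 when a library was left out. The 8 tested receptors kept their sign in each of the 13 alternatives. The number of all genes called was 1855, against 3441 with DESeq2, 1079 with no low-count filter and 277 to 1431 without a library. With 1 Runx3 +/+ library left out, the other is assumed to vary like Runx3 +/WRPW, and 18369 or 18169 genes were tested. Whether the replicate numbers shared by the genotypes pair the libraries is not known. Deviations of same-numbered libraries correlated at -0.0492 and 0.00244. This check cannot settle pairing, since the deviations of the 2 Runx3 +/+ libraries mirror each other. The column header of Runx3 +/+ library 2 also gives another number. Runx3 +/WRPW library 3 has no partner of its number, so a replicate block takes it out of the contrast. With the number as a replicate block, 754 genes were called, with 3 receptors higher and 1 lower; Ccr4 (adjusted p = 0.0559) and Ccr7 (adjusted p = 0.0614) did not pass. In the same fit, 2 of the G protein subunits and effectors were higher and 1 lower.

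Among genes outside the set, none of them called, the log2 fold change reversed to 0.035 for Cxcr2 without Runx3 +/+ library 1 (range without a library -0.683 to 0.035), to -0.061 for Cx3cr1 (-0.061 to 1.654) and -0.049 for Cxcl10 (-0.049 to 1.005) without Runx3 +/+ library 2, and for Tbx21 to -0.57 with limma-voom and to -0.04 and -1.08 when library 2 of Runx3 +/+ or of Runx3 +/WRPW was left out (-1.08 to 0.48). The cause of these changes was not tested. Receptors below about 1 CPM, here Ccr10, are at the limit of the depth.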
